A study of Mus musculus with 6 samples.

Results

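The genes described here encode the transport machinery and the gate of the primary cilium, and 40 were taken by symbol from the 24411 rows of a deposited liver expression table. They comprise 11 genes of the intraflagellar transport B (IFT-B) train, 7 of the IFT-A train and its adaptor, 9 of the BBSome with its chaperonins and GTPase, 4 of the cilium motors and 9 of the transition zone and ciliary membrane. All 40 had a row, and 36 had a mean of at least 0.5 TPM (transcript level corrected for gene length and scaled to one library total) over the 6 libraries. Of all rows, 12539 reached that mean.

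The primary cilium is a single antenna-like extension of the cell surface, built on a centriole and enclosed by its own membrane. IFT-B trains driven by kinesin-2 carry cargo towards the tip, IFT-A trains driven by cytoplasmic dynein-2 return it, the BBSome moves membrane receptors, and the transition zone at the base controls entry. In the liver the cilia of bile duct cells (cholangiocytes) sense bile flow and composition, while hepatocytes lack primary cilia, and inherited defects of several of these genes cause bile duct malformation and liver fibrosis.

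Messenger RNA of whole liver was sequenced in 3 control samples, labelled WT, and in 3 samples of mice with the genotype Alb-Cre+/+;Sox9 flox/flox (Sox9 cKO). In the cKO mice Cre recombinase under the albumin promoter deletes Sox9, which encodes a transcription factor active in bile ducts, in the liver epithelium that arises from albumin-expressing cells. C57BL/6J mice are among the strains the study names, but the labels do not state whether the controls carried floxed alleles or Cre, and the age and sex of the animals are not given. Separate animals per library are not stated, and p-values measure only the spread between these samples. The comparison addresses how loss of SOX9 alters the liver while the bile duct network matures after birth.

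The libraries hold values that touch every result below. Sox9 was at 1.69, 1.43 and 1.43 TPM in the controls and 0.19, 0.40 and 0.68 TPM in the cKO libraries, so the targeted gene was lower in each library with the cKO label. TPM values carry no record of sequencing depth. Control replicates 1 and 2 had 114 and 123 TPM of Xist, an RNA of female cells, and the other 4 libraries had 0.02 TPM or less. Sex and genotype cannot be told apart except through control replicate 3, the only control without Xist. Liver identity was clear in each library, with Alb at 74907 to 110461 TPM. Over all tested genes 1099 were lower and 103 higher in Sox9 cKO (limma adjusted p under 0.05), and the median log2 fold change was -0.24 on the log2(TPM + 0.5) scale used for all changes here, which understates the change of low genes. After median centring 256 were lower and 146 higher, and that median was 0.04.

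Most of these genes were at low levels. The median of the members' mean levels was 2.57 TPM, against 9.28 TPM over all tested genes, and 19.4% of the tested members but 64.7% of all tested genes reached 5 TPM. Summed over all 40 members, the level was 202 to 209 TPM in the controls and 174 to 199 TPM in the cKO libraries, and the groups did not overlap. Ift20 alone gave 58.0 to 85.2 TPM of that sum. Without it the sum was 136 to 151 TPM in the controls and 105 to 122 TPM in the cKO libraries. In whole liver, fewer cells of a type and less RNA per cell cannot be told apart.

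**Figure D1:**
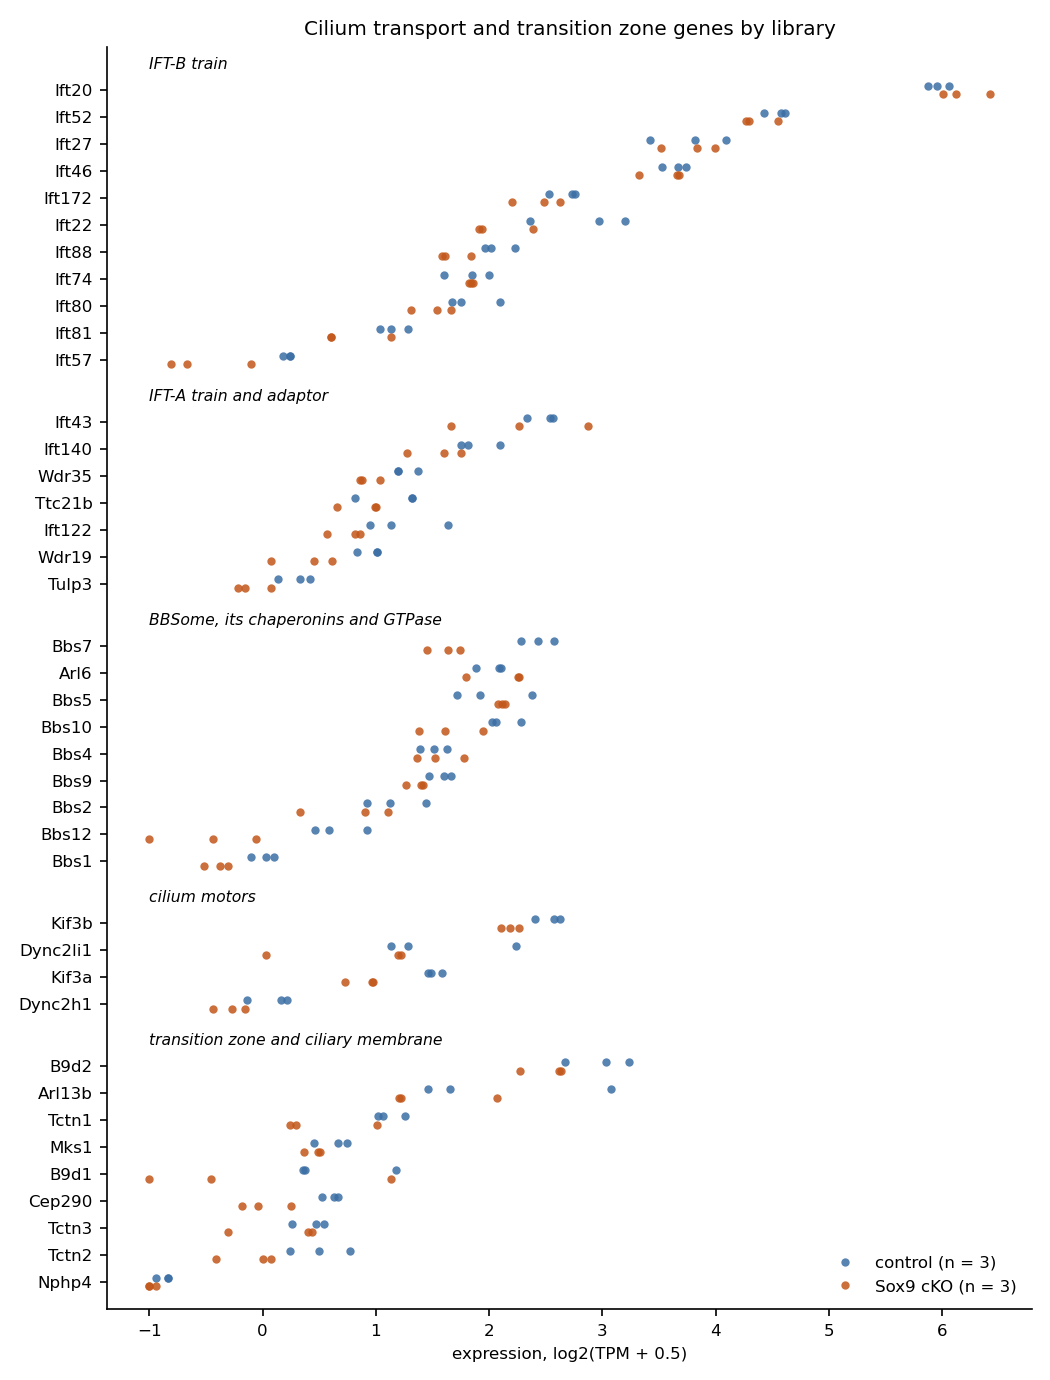
Expression of the 40 members in each library, on the log2(TPM + 0.5) axis, with 3 control libraries in blue and 3 Sox9 cKO libraries in orange, ordered by role and mean level. Ift20 lies far to the right of all others, Nphp4 at the left edge, and the groups of Bbs7, Bbs12, Kif3a and Ift57 do not overlap.

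Many members held a promoter feature that the choice by name did not use. Regulatory factor X (RFX) proteins are known to bind the X-box, an inverted repeat found before many ciliary genes. RefSeq promoter sequences of GRCm38.p6, from 250 bases before the start site to 50 after it, were found for 36 of the 40 members. One arm of the repeat, GTTGCC on either strand, occurred in 19 of these 36 members (52.8%), against 14.1% of 27025 genes and 12.5% of 32851 promoters. Both arms, searched on both strands as GTTNCC followed after 1, 2 or 3 bases by GGNAAC, occurred in 5 of 36 members (13.9%), against 0.903% of genes and 0.776% of promoters. The spacing was 1 base in 2 members, Tctn3 among them, 2 bases in Bbs7, Mks1 and Tctn1, and 3 bases in 0 members. These spellings were chosen after the data were seen. The single arm and the full repeat overlap by construction. A match in these windows describes letters only and does not show binding. Of the 5 matches 4 are shown with up to 13 flanking bases because they let the arms and their spacing be compared between Bbs7, a member past the test, and members that were not. Capitals mark the repeat.
Bbs7, chr3:36613484-36613523, minus strand: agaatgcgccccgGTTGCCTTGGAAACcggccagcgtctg
Mks1, chr11:87853178-87853217, plus strand: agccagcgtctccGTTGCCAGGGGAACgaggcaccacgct
Tctn1, chr5:122264411-122264437, minus strand: ctaggctgtgactGTTGCCCGGGCAAC
Tctn3, chr19:40612346-40612384, minus strand: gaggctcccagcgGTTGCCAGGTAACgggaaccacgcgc
Counted from the RefSeq start site as 0, the repeat began at -121 in Bbs7, -24 in Mks1, 36 in Tctn1 and -140 in Tctn3. That start site of Bbs7 lies inside the Bbs7 span given below, which is from another annotation. The repeat is nearer to the end of that span. Among tested members with a promoter sequence, the median log2 fold change was -0.39 for the 15 with the single arm and -0.27 for the 17 without it, and 1 of each was called.

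Of the 36 tested members, 2 fell and 0 rose in Sox9 cKO (limma adjusted p under 0.05), or 5.56%, against 8.76% of all tested genes that were lower and 0.821% that were higher. The 2 were Bbs7 and Bbs12, a share near that of all tested genes, and 2 calls are too few to read a difference from it. At an unadjusted p under 0.05, 12 members were lower (33.3%, against 27.2% of all tested genes) and 0 were higher (2.57% of all). The fitted change was below 0 for 30 of 36 members (83.3%, against 77.3% of all), with a member median of -0.36 that turned to 0.10 under quantile normalization and was -0.08 after median centring. In 16 members every Sox9 cKO library was below every control (44.4%, against 33.7%), and in 0 members every Sox9 cKO library was above (3.79% of all). Bbs12, Tctn2 and Tulp3, which are among these 16, reached the 0.5 TPM filter only through the controls, which favours such separation.

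The level of a gene moved with its change in this table. Level was the mean over all 6 libraries, so the Sox9 cKO values enter both the range and the change. The 2 are therefore not independent. Over all 4428 tested genes with a mean under 5 TPM the median log2 fold change was -0.41 and 12.4% were called lower, while over the 8111 genes at or above 5 TPM the median was -0.16 and 6.76% were called lower. The 29 members under 5 TPM had a median of -0.38 and 2 called (6.90%), and in 51.7% of them every Sox9 cKO library was below every control, against 42.6% of all genes in that range. The 7 members at or above 5 TPM had a median of -0.17 and 0 called, and such separation occurred in 14.3% of them, against 28.8% of all genes at that level. Set beside genes of the same range of level, the members had medians that differed from those of all genes by less than 0.05.

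**Figure D2:**
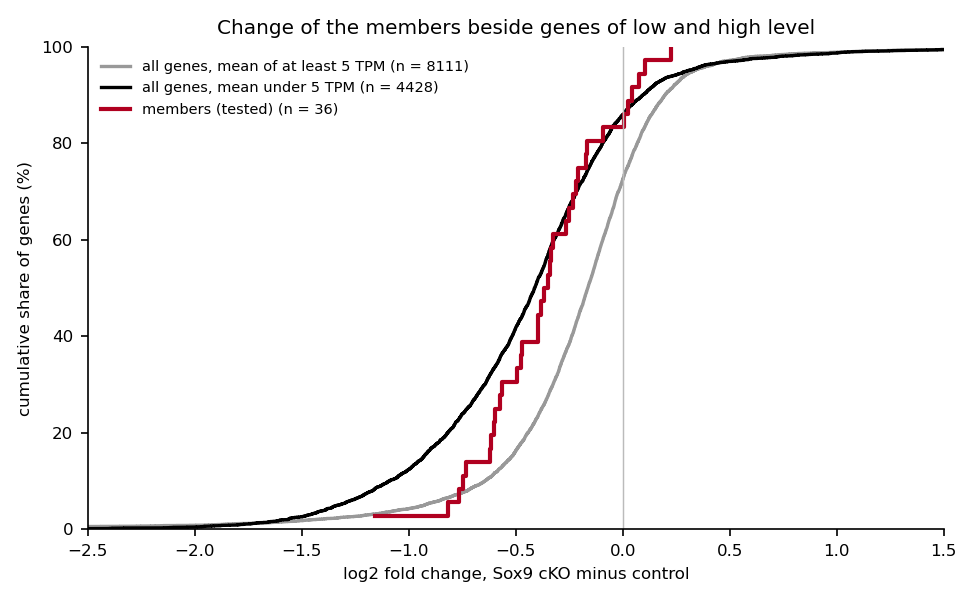
Cumulative share of genes (vertical axis, %) by log2 fold change, Sox9 cKO minus control (horizontal axis), for the 36 tested members in red, all 4428 tested genes under 5 TPM in black and all 8111 at or above 5 TPM in grey. The red line runs close to the black line in its middle and starts at -1.16, while the black line continues further left. The member median of -0.36 turned to 0.10 under quantile normalization.

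Among the BBSome genes, Bbs7 fell to 52.4% of its control mean. Bbs7 (chromosome 3, 36573142 to 36613477, mm10) encodes a propeller-domain subunit of the BBSome, the coat that carries receptors through the ciliary membrane. Its level was 4.36, 4.90 and 5.44 TPM in the controls and 2.61, 2.24 and 2.85 TPM in the cKO libraries, or 4.90 ± 0.540 and 2.57 ± 0.307 TPM (SD, n = 3 each). The groups did not overlap, and control replicate 3, the one without Xist, was the highest library. The fitted decrease was -0.82 on the log2 scale (SE 0.17, limma adjusted p = 0.0288). Of 18 further settings 9 kept the call, with log2 fold changes of -0.96 to -0.40. It did not pass after median centring (adjusted p = 0.10) or quantile normalization (adjusted p = 0.212). Without any 1 of the controls the adjusted p was 0.0826 to 0.110, without Sox9 cKO replicate 1 it was 0.0612, and with a term for Xist it was 0.127.

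Bbs12, which encodes a chaperonin-like protein that helps assemble the BBSome, also fell. Bbs12 (chromosome 3, 37312554 to 37321453) was at 0.88, 1.00 and 1.40 TPM in the controls and at 0.46, 0.24 and 0 TPM in the cKO libraries. Every Sox9 cKO library was below every control, and the last was listed at 0. The mean was 1.09 TPM in the controls and 0.233 TPM in the cKO libraries, so Bbs12 reached the 0.5 TPM filter only through the controls. On the log2 scale the change was -1.16 (SE 0.30, limma adjusted p = 0.0496). Only 4 of 17 further settings kept this call, and log2 fold changes ran from -2.14 to -0.72. The adjusted p was 0.148 after median centring, 0.271 under quantile normalization, 0.164 with a term for Xist and 0.0502 to 0.149 without any 1 library. Exons of Bbs12 overlap exons of Cetn4 on the opposite strand and of Gm43439 on the same strand, and with RSEM's strand setting not given their reads may not be separated. Bbs7 and Bbs12 lie 699 kb apart, and the 1 other tested gene between them, 4932438A13Rik, did not pass (log2 fold change -0.38, limma adjusted p = 0.291).

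The remaining BBSome genes did not pass the test. Bbs10, a second chaperonin-like assembly factor, was at 3.57, 4.36 and 3.68 TPM in the controls and 2.56, 2.11 and 3.36 TPM in the cKO libraries, with groups that did not overlap (adjusted p = 0.154). Bbs9, a core subunit, was at 2.27 to 2.66 TPM and 1.91 to 2.17 TPM, also without overlap, with a log2 fold change of -0.22. Bbs2, the partner of Bbs7 in the BBSome head, was at 1.39 to 2.22 TPM in the controls and 0.76 to 1.65 TPM in the cKO libraries, and the groups overlapped. Bbs4, a scaffold subunit, was at 2.12 to 2.59 and 2.08 to 2.92 TPM. Bbs5, a lipid-binding subunit, was at 4.71, 3.28 and 2.79 TPM in the controls and 3.82, 3.73 and 3.90 TPM in the cKO libraries, with a log2 fold change of 0.10 (95% interval -0.36 to 0.57). Arl6, the GTPase that recruits the BBSome to membranes, was at 3.75, 3.20 and 3.81 TPM and at 2.97, 4.29 and 4.26 TPM (0.07, interval -0.36 to 0.51). For Bbs5 and Arl6 the groups overlapped, and the sign of both depended on single libraries. Bbs1, another propeller subunit, was at 0.43 to 0.57 TPM in the controls and 0.20 to 0.31 TPM in the cKO libraries, and its mean was under the filter. Summed over the 9 genes, the level was 24.0 to 24.4 TPM in the controls and 18.1 to 21.1 TPM in the cKO libraries.

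The IFT-B train had 0 of 10 tested members past the test. Ift20, a subunit that also sorts membrane proteins at the Golgi, was by far the highest of the 40 members, at 66.0, 61.4 and 58.0 TPM in the controls and 63.8, 85.2 and 69.3 TPM in the cKO libraries. Its log2 fold change of 0.22 was the highest of all tested members (95% interval -0.10 to 0.55, limma adjusted p = 0.320), and the groups overlapped. Ift52, a core subunit, followed at 21 to 23.9 TPM in the controls and 18.8 to 23.0 TPM in the cKO libraries. Ift27, a small GTPase of the train, was at 10.2 to 16.5 and 11.0 to 15.4 TPM, and its partner Hspb11 (IFT25), which is not among the 40, was at 14.7 to 17.8 and 14.9 to 20.7 TPM. Ift46 was at 11.0 to 12.9 TPM in the controls and 9.48 to 12.3 TPM in the cKO libraries. For these 4 members the groups overlapped and log2 fold changes lay between -0.17 and 0.22.

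The other IFT-B members had means of 6 TPM or less over all 6 libraries. Ift22 (chromosome 5, 136908150 to 136915404), a GTPase of the train, had the largest fitted decrease outside the BBSome, from 7.31, 8.67 and 4.64 TPM to 4.73, 3.25 and 3.33 TPM. The fitted value was -0.76 on the log2 scale (SE 0.25, limma adjusted p = 0.0907), and Sox9 cKO replicate 1 lay above control replicate 3. With a term for Xist it was -0.28 (adjusted p = 0.635). The fitted decreases of Arl13b (-1.58), Dync2li1 (-1.42) and B9d1 (-1.28) were then larger, but none of them passed. With that term the group difference rests on control replicate 3, which was the highest library for each of these last genes. Ift88, whose loss is a standard way to remove cilia in mice, was at 3.55, 3.41 and 4.2 TPM in the controls and 3.07, 2.50 and 2.56 TPM in the cKO libraries. The groups did not overlap, and the log2 fold change was -0.39 (95% interval -0.78 to -0.0043, adjusted p = 0.165). Exons of Ift88 overlap those of Ift88os on the opposite strand. Ift80, a gene of skeletal ciliopathy, also had groups that did not overlap, with 2.69 to 3.77 TPM in the controls and 1.98 to 2.66 TPM in the cKO libraries. Its 95% interval of -0.78 to 0.11 spanned 0 (limma adjusted p = 0.276). Ift74 and Ift81 form the tubulin-binding dimer of the train. Ift74 was at 3.04 ± 0.483 and 3.08 ± 0.0458 TPM and Ift81 at 1.72 ± 0.192 and 1.25 ± 0.393 TPM, and neither passed. Ift172, which links the train to its motors, was at 5.28 to 6.27 and 4.10 to 5.68 TPM.

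Ift57 was left out of the test by its low mean of 0.437 TPM, although its groups stood apart. This IFT-B subunit was at 0.68, 0.63 and 0.68 TPM in the controls and at 0.43, 0.13 and 0.07 TPM in the cKO libraries. Without a filter on level its change was fitted at -0.75 on the log2 scale (SE 0.19, limma adjusted p = 0.0680 over 16867 genes). Its exons overlap those of Gm15518 on the opposite strand.

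In the IFT-A train, 0 of 7 tested members passed, and all 7 had fitted changes below 0, of which 5 (Ift43, Ift140, Ttc21b, Wdr35 and Tulp3) turned positive under quantile normalization. Ift43 was the highest, at 4.54, 5.42 and 5.29 TPM in the controls and 4.31, 6.82 and 2.67 TPM in the cKO libraries, and its cKO libraries lay on both sides of the controls. Ift140, a core subunit like Ift122, was at 2.86 to 3.78 TPM and 1.92 to 2.87 TPM. Ift122 was at 1.70, 1.43 and 2.61 TPM in the controls and 1.26, 0.98 and 1.31 TPM in the cKO libraries, without overlap (adjusted p = 0.200). Wdr19 (IFT144), a gene of cystic kidney and liver ciliopathy, was at 1.52, 1.28 and 1.51 TPM and at 1.03, 0.55 and 0.87 TPM, the largest fitted decrease of the train (log2 fold change -0.57, SE 0.22, limma adjusted p = 0.128). Wdr35 (IFT121) was at 1.79 to 2.09 and 1.32 to 1.55 TPM, and Tulp3, the adaptor that loads membrane receptors onto IFT-A, at 0.60 to 0.84 and 0.36 to 0.55 TPM, both without overlap. With a cKO mean of 0.437 TPM, Tulp3 reached the 0.5 TPM filter only through the controls. Ttc21b (IFT139) was at 1.26 to 2.00 and 1.08 to 1.5 TPM, and its groups overlapped.

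Among the cilium motors, 0 of 3 tested genes passed. Kif3a and Kif3b encode the motor subunits of heterotrimeric kinesin-2. Kif3a (chromosome 11, 53567379 to 53601967) was at 2.26, 2.49 and 2.30 TPM in the controls and 1.45, 1.46 and 1.16 TPM in the cKO libraries, or 57.7% of the control mean. The groups did not overlap (log2 fold change -0.62, SE 0.18, limma adjusted p = 0.0629). Kif3a passed without the variance trend (limma adjusted p = 0.0347) and with array weights (0.0253). Its log2 fold change shrank to -0.35 after median centring (adjusted p = 0.285) and to -0.13 under quantile normalization (adjusted p = 0.724). Kif3b was at 5.68, 4.79 and 5.44 TPM and at 3.79, 4.04 and 4.30 TPM, also without overlap (log2 fold change -0.35, adjusted p = 0.164). Their non-motor partner Kifap3, which is not among the 40, was at 3.94 to 4.11 TPM in the controls and 1.83 to 3.62 TPM in the cKO libraries (log2 fold change -0.49, adjusted p = 0.198).

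The dynein-2 genes rested on single libraries or low levels. Dync2li1, the light intermediate chain, was at 1.69, 1.93 and 4.21 TPM in the controls and 1.79, 1.83 and 0.52 TPM in the cKO libraries. The log2 fold change was -0.73 (95% interval -1.68 to 0.21). Control replicate 3 was the highest and Sox9 cKO replicate 3 the lowest, while the other 4 libraries lay between 1.69 and 1.93 TPM. Dync2h1, the heavy chain, was at 0.62, 0.41 and 0.66 TPM and at 0.40, 0.24 and 0.33 TPM, and its mean of 0.443 TPM was under the filter although the groups did not overlap.

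**Figure D3:**
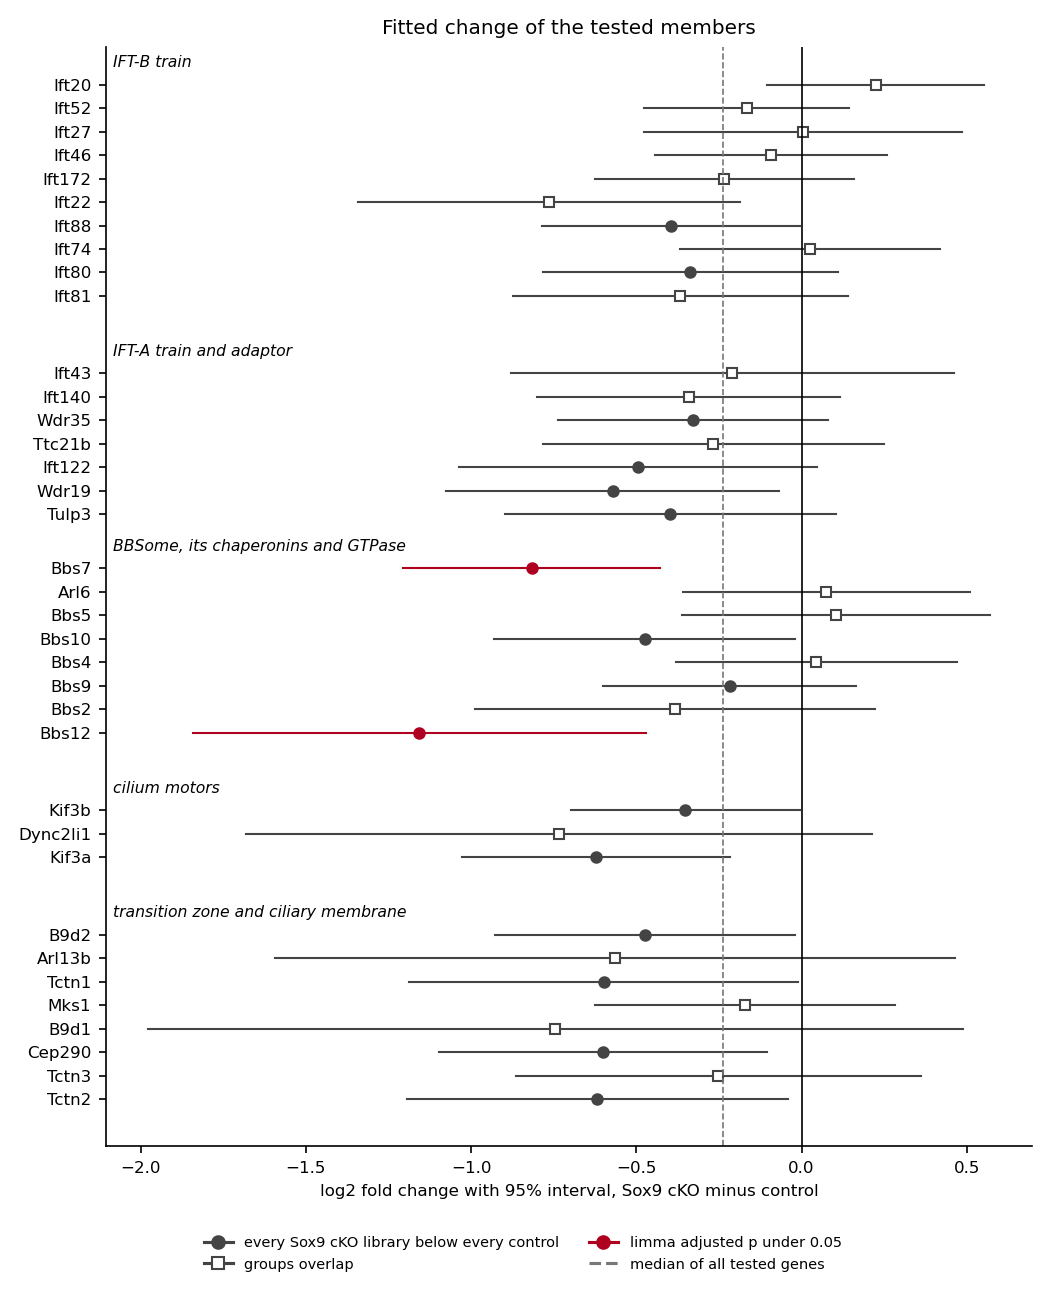
Log2 fold change with its 95% interval (horizontal axis, Sox9 cKO minus control) of the 36 tested members by role, where filled circles have every Sox9 cKO library below every control and red marks an adjusted p under 0.05. The dashed line is the median of all tested genes at -0.24, and the intervals of most members cross it. Under quantile normalization 16 of these changes turn positive.

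In the transition zone, 0 of 8 tested members passed, and all 8 had fitted changes below 0, of which Mks1 and Tctn3 turned positive under median centring and quantile normalization and Arl13b with array weights. Cep290, a scaffold of the Y-shaped links between axoneme and membrane, was at 0.94, 1.09 and 1.05 TPM in the controls and 0.47, 0.38 and 0.69 TPM in the cKO libraries. Every Sox9 cKO library was below every control, and the mean was 50% of control (log2 fold change -0.60, SE 0.21, limma adjusted p = 0.111). Exons of Cep290 overlap those of 4930430F08Rik on the opposite strand. The tectonic genes encode proteins of one transition zone complex. Tctn2 was at 1.21, 0.91 and 0.68 TPM and at 0.50, 0.25 and 0.55 TPM (adjusted p = 0.145), and Tctn1 at 1.89, 1.53 and 1.59 TPM and at 1.51, 0.68 and 0.73 TPM (adjusted p = 0.162), both without overlap. With a cKO mean of 0.433 TPM, Tctn2 reached the 0.5 TPM filter only through the controls. Tctn3 was at 0.70 to 0.96 and 0.31 to 0.85 TPM, and its groups overlapped. Exons of Tctn1 overlap those of Hvcn1 and Gm15481 on the opposite strand.

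B9d1, B9d2 and Mks1 encode the B9-domain proteins of the same complex and had unlike patterns. B9d2 was the highest transition zone gene, at 5.87, 7.67 and 8.94 TPM in the controls and 5.71, 5.64 and 4.32 TPM in the cKO libraries, with no overlap (log2 fold change -0.47, limma adjusted p = 0.154). B9d1 was at 0.78, 0.80 and 1.76 TPM and at 0, 1.69 and 0.23 TPM, with a span in Sox9 cKO wider than that of controls. Mks1 was at 0.87, 1.18 and 1.09 TPM and at 0.92, 0.90 and 0.79 TPM, with overlap. Arl13b, a GTPase of the ciliary membrane often used as a cilium marker, was at 2.26, 2.64 and 7.92 TPM in the controls and 3.71, 1.83 and 1.80 TPM in the cKO libraries. Control replicate 3 stood far above the other 5 libraries, and without it the log2 fold change went from -0.56 to -0.06. Nphp4, a nephrocystin, did not exceed 0.06 TPM and was listed at 0 in 2 Sox9 cKO libraries.

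Across libraries the members followed the whole table in where their lowest values lay. Sox9 cKO replicate 2 was the lowest library for 16 of 36 tested members (44.4%, against 42.5% of all tested genes). The highest value was in control replicate 3 for 14 members (38.9%, against 22.8%) and in a Sox9 cKO library for 4 members (11.1%, against 32%). The median deviation from the control mean was -0.42 to -0.22 on the log2 scale for the members and -0.33 to -0.19 for all tested genes in the Sox9 cKO libraries.

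**Figure D4:**
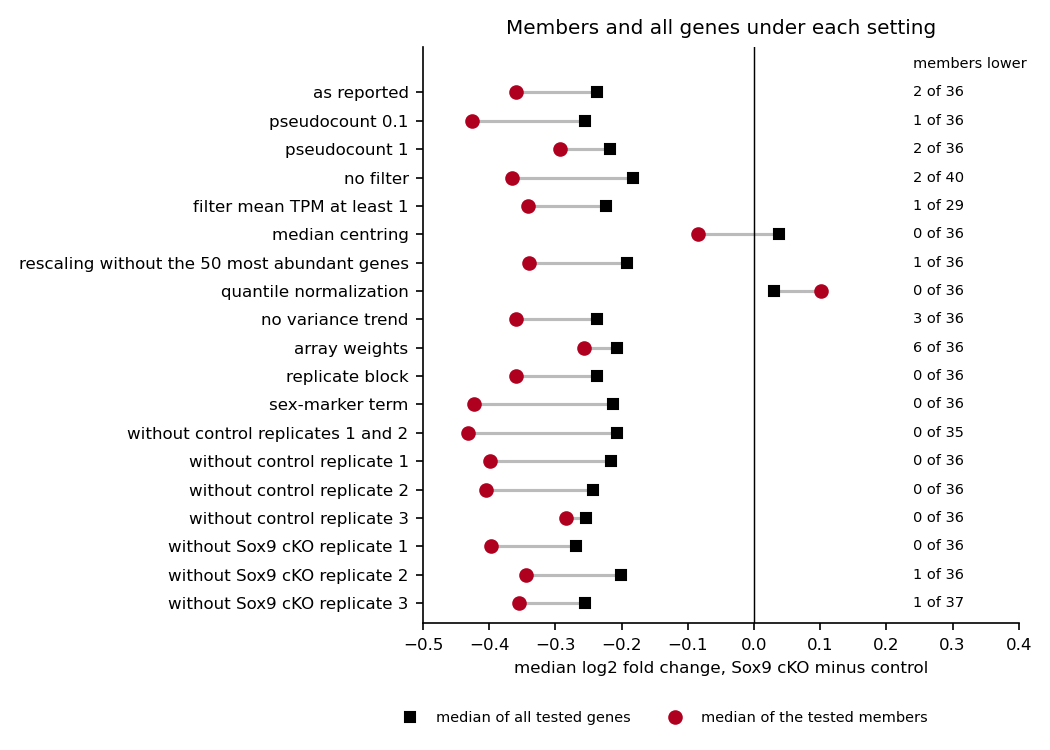
Median log2 fold change (horizontal axis) of the tested members in red and of all tested genes in black under the reported fit and 18 other settings, with the count of members called lower at the right. The member median lies below that of all genes in every setting shown except quantile normalization, where it is 0.10, and the count ranges from 0 to 6.

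Other cilium genes gave similar counts. Of 14 further tested IFT, BBSome and motor genes 1 fell and 0 rose, namely Rabl2, a GTPase that binds IFT-B, at 3.36 to 4.03 TPM in the controls and 1.84 to 2.08 TPM in the cKO libraries (log2 fold change -0.78, limma adjusted p = 0.0310). Of 15 further transition zone and Joubert syndrome genes 1 fell and 0 rose, namely Cc2d2a, at 3.10 to 3.28 and 0.97 to 2.03 TPM (-0.94, adjusted p = 0.0424). Of 17 centriole and basal body genes 0 passed, with a median of -0.44. All 17 were fitted below 0, Cep63 only at -0.00056, against 77.3% of all tested genes. In 8 of them every Sox9 cKO library was below every control, against 33.7% of all. The median of their mean levels was 1.98 TPM, and such separation occurred in 42.6% of all tested genes under 5 TPM. Changes of these 17 genes under other settings are not given here. The 2 most abundant overlapped, with Cby1 at 8.1 to 11.2 and 6.42 to 9.84 TPM and Cep63 at 6.75 to 8.02 and 6.64 to 8.13 TPM. Of 6 cilium disassembly genes 0 passed, and the tubulin deacetylase gene Hdac6 was at 8.35 to 8.94 and 5.18 to 6.4 TPM (-0.54, adjusted p = 0.0527). Hdac6 was the only 1 of the 6 with every Sox9 cKO library below every control. Plk1 (-1.50), Nek2 (-1.25) and Aurka (-0.75) had larger fitted decreases, with groups that overlapped. Motile cilium genes had 10 of 12 rows found and 0 above the filter. Over all 62 tested genes of these and the next lists, 5 fell and 0 rose, or 8.06%, against 8.76% lower over all tested genes. All 5 stayed below 0 in every setting that tested them, but 0 of them passed after median centring, under quantile normalization, with a term for Xist, without control replicates 1 and 2 (4 of the 5 tested) or without any 1 of the controls.

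Genes of the Hedgehog pathway, a signal that cilia transmit, and genes of the RFX family had 3 of those 5 calls. Of 6 tested Hedgehog pathway genes 2 fell and 0 rose, against 8.76% lower and 0.821% higher over all tested genes. Evc was at 1.57, 1.34 and 1.31 TPM in the controls and 0.56, 0.39 and 0.46 TPM in the cKO libraries (log2 fold change -0.98, limma adjusted p = 0.0282), and Evc2 at 0.99, 1.37 and 0.89 TPM and at 0.36, 0.35 and 0.32 TPM (-0.90, adjusted p = 0.0418). Both encode the complex at the cilium base that relays Smoothened activity, and in both the groups were far apart. Their cKO means were 0.47 and 0.343 TPM, so both reached the 0.5 TPM filter only through the controls. The same held for Hhip, with a cKO mean of 0.37 TPM. In all 6 Hedgehog genes every Sox9 cKO library was below every control, Smo and Ptch1 included, against 33.7% of all tested genes. All 6 had means under 5 TPM, where such separation occurred in 42.6% of all tested genes. Gli1, Gli2 and Gli3 stayed at or under 0.15 TPM and were not tested. Of 4 tested RFX genes 1 fell, Rfx5, known mainly as a regulator of MHC class II genes, at 5.56 to 6.00 and 1.91 to 3.62 TPM (-1.01, adjusted p = 0.0314). Rfx1 was at 3.69 to 4.64 and 1.86 to 2.80 TPM (adjusted p = 0.0693). Rfx3, a known regulator of ciliary genes, was at 0.33 to 0.79 and 0.42 to 0.51 TPM and did not pass (adjusted p = 0.675).

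Markers of other liver cells moved with the groups. Their counts stand beside 8.76% of all tested genes called lower. That share rests on 1099 genes, which became 49 with a term for Xist and 215 under quantile normalization. Marker calls under other settings are not given here. Macrophage markers fell in 4 of 7 tested genes, among them Cd68, with a summed level of 342 to 570 TPM in the controls and 105 to 246 TPM in the cKO libraries. Stellate cell and fibroblast markers fell in 6 of 8, among them Col3a1, with sums of 330 to 355 and 98.5 to 197 TPM. Endothelial markers fell in 2 of 6 (136 to 153 and 81.6 to 118 TPM), lymphocyte markers in 1 of 4 (11.9 to 15.2 and 3.82 to 7.88 TPM), and cell division genes in 1 of 6 (26.5 to 78.4 and 2.85 to 26.5 TPM). Cholangiocyte markers fell in 1 of 7, Prom1, and their sums of 83.0 to 140 and 51.1 to 74.7 TPM were mostly Spp1. Cftr and Sctr, which mark cholangiocytes, did not exceed 0.12 TPM anywhere. Hepatocyte markers had 0 of 8 called, 3 of 8 with fitted changes below 0 and a median log2 fold change of 0.19. Their sums of 136996 to 144161 and 109707 to 118912 TPM were mostly Alb. The part of these markers in the changes of the cilium genes was not tested.

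**Figure D5:**
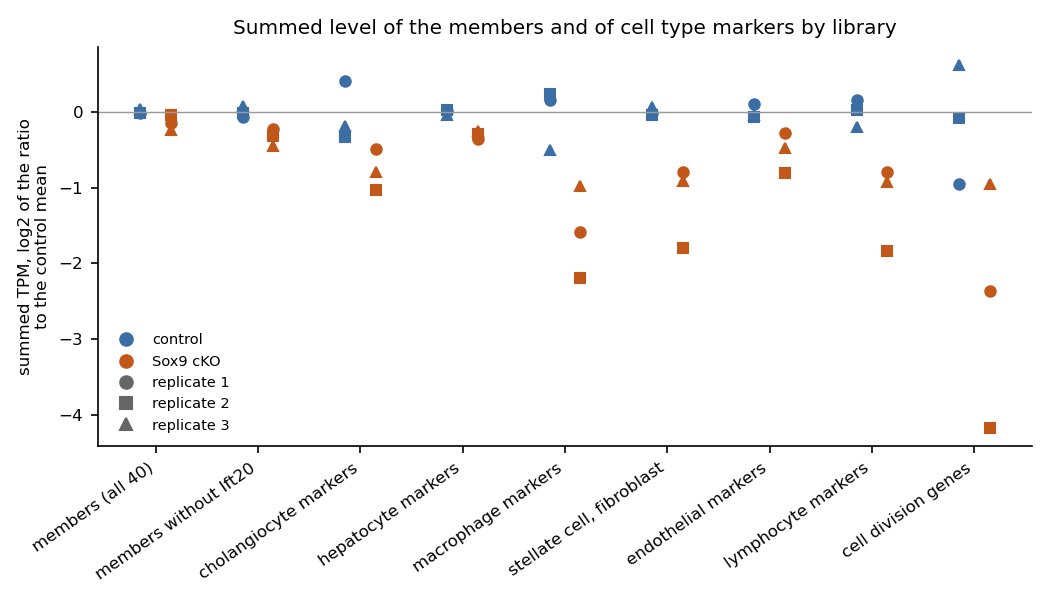
Summed TPM of the members and of cell type marker lists in each library, as log2 of the ratio to the control mean (vertical axis), with controls in blue, Sox9 cKO in orange and replicates by shape. The sums of members lie within 0.5 of the control mean, while macrophage, stellate cell, lymphocyte and cell division sums of Sox9 cKO replicate 2 lie more than 1.5 below it.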

How the data were processed

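Liver mRNA of 3 control and 3 Sox9 cKO samples was analysed from 1 table of TPM that the authors deposited, with 1 column per library. Per the submitters' processing notes and the design text, reads were trimmed with Trim Galore 0.5.0 (cutadapt 1.16), aligned to the mouse build mm10 with STAR 2.6.0a and quantified with RSEM 1.3.1. The annotation used and the strand setting of RSEM were not given in the sources used here. TPM scales each library to one total, so depth is unknown, no counting interval was computed, and abundant genes shift all others. Columns were matched to samples by library number, and 0 columns were without a sample.

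A limma model (limma 3.58.1 in R 4.3.3) of log2(TPM + 0.5) on group, with a variance trend, was fitted to the 12539 genes whose mean reached 0.5 TPM. Its two-sided p-values were adjusted over these genes after Benjamini and Hochberg, with a threshold of 0.05. The exact permutation test of 3 against 3 cannot go below 0.1 and was not used. Errors are SD of TPM or SE of the fit. Positions and exon overlaps are from GENCODE M21 (GRCm38, the assembly of mm10), and all 40 members matched. Exons of 7 members overlap those of another gene on the opposite strand. They are Ift57, Ift88, Bbs4, Bbs12, Arl6, Cep290 and Tctn1, and their reads may not be separated from those of the overlapping genes. Figures used matplotlib 3.10.9.

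The members, lists and tests were chosen with earlier results of these data known. Any member could be named, with every library's value for members past the threshold and for the 3 largest changes in each direction. Of each other list up to 4 called genes or the 2 most abundant could be named, and others were chosen after their values were seen. Alternatives were 2 pseudocounts, 2 filters, 3 scalings, no variance trend, array weights, a replicate block, a term for Xist above 10 TPM (the sex-marker term), and fits without single libraries or without control replicates 1 and 2. The split of genes at 5 TPM and the promoter motifs were added after the data were seen. One promoter match and one marker are not reported here.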

Additional observations from a re-analysis of the deposited data

How the results depend on the processing

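The call of Bbs7 held in 9 of 18 settings and that of Bbs12 in 4 of 17. Members called lower numbered 1 with a pseudocount of 0.1, with a filter at 1 TPM or after rescaling without the 50 most abundant genes, 0 after median centring, under quantile normalization, with the sex-marker term or without control replicates 1 and 2, and 6 with array weights (Bbs7, Bbs12, Bbs10, Cep290, Ift22 and Kif3a). All genes called lower numbered 256 after median centring, 725 after rescaling, 215 under quantile normalization, 2312 with array weights, 49 with the sex-marker term and 18 without control replicates 1 and 2, and genes called higher 252, 21 and 15 in the last 3. The member median was -0.085 after median centring, 0.10 under quantile normalization and -0.26 with array weights. Leaving out 1 library gave 0 to 1 members and 137 to 1062 genes lower, 41 to 112 genes higher, and member medians of -0.41 to -0.28. Deviations from the group mean had correlations of -0.0446, 0.00354 and -0.0269 between same-numbered samples, and of -0.022 to 0.054 between samples of different number. With 3 libraries per group such deviations are tied to each other, so these values do not settle whether samples were paired. The labels give only a shared number. A replicate block left 563 genes and 0 members lower, and 0 of the 5 other cilium genes called. The causes of these shifts were not tested.

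Signs of log2 fold changes turned for members that did not pass. After median centring they were 0.057 for Bbs9, 0.041 for Ift172, 0.065 for Ift43, 0.18 for Ift46, 0.11 for Ift52, 0.10 for Mks1, 0.023 for Tctn3 and 0.0078 for Ttc21b. Under quantile normalization they were 0.12 for Bbs2, 0.26 for Bbs9, 0.11 for Ift140, 0.11 for Ift172, 0.16 for Ift43, 0.15 for Ift46, 0.022 for Ift52, 0.11 for Ift80, 0.13 for Ift81, 0.039 for Ift88, 0.025 for Kif3b, 0.33 for Mks1, 0.24 for Tctn3, 0.23 for Ttc21b, 0.096 for Tulp3 and 0.16 for Wdr35. Array weights gave 0.030 for Arl13b, -0.058 for Arl6 and -0.091 for Bbs4. The sex-marker term, and likewise leaving out control replicates 1 and 2, gave -0.0057 for Arl6, -0.31 for Ift27, 0.025 for Ift46 and -0.16 for Ift74. Leaving out each library in turn gave -0.064 to 0.14 for Bbs4, -0.17 to 0.16 for Ift27, -0.082 to 0.12 for Ift74, -0.040 to 0.29 for Bbs5, -0.0046 to 0.23 for Arl6, -0.51 to 0.091 for Ift43 and -0.15 to 0.023 for Ift46. Over all members and settings, 46 values turned, 22 lost and 5 gained a call, and 567 kept sign and side. Depth is unknown, so the counting error of members near 0 TPM was not estimated.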
